A study of Mus musculus with 8 samples.

Results

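The genes described here encode the protein parts of the cytosolic ribosome. They were chosen by symbol: protein-coding genes named Rpl or Rps with a number and optional letters, together with Rplp0, Rplp1, Rplp2 and Rpsa. Kinases named Rps6k, names with -ps and copies with a like suffix were left out. Of 82 symbols with these letters, 5 were like copies (Rpl10l, Rpl36al, Rpl39l, Rpl3l and Rps27l) and 1, Rps27rt, fell under the minimum of 10 counts summed over the 8 libraries, with 8 counts. This left 76 members of 54232 listed gene identifiers, of which 30 belong to the small subunit, 43 to the large subunit and 3 to the stalk. The member nearest the minimum, Rpl23a, had 100 counts. Some parts of this ribosome, such as Rps3a1, Fau and Rack1, have symbols that fall outside the rule.

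RNA was sequenced from scraped back-skin epidermis of female mice, either wild type or knockout for REDD1, all on an F1 background of C57Bl and 129. REDD1, which Ddit4 encodes, is made under stress and holds back mTORC1. The vehicle groups received 200 ul acetone, the TPA groups 4 ug of the phorbol ester TPA in acetone, and the FA+TPA groups 2 ug of fluocinolone acetonide (FA), a topical glucocorticoid, 1 h before that dose of TPA. Treated skin was taken 24 h after TPA. Vehicle skin gave 2 libraries in each genotype, while TPA and FA+TPA skin gave 1 in each genotype. Ages and a harvest time for vehicle skin were not used here. No treated group had a replicate, and nothing in the labels says whether the vehicle replicates were separate mice, so p-values reflect only the differences among these libraries, and those may be technical.

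Each ribosomal protein is made from a single working gene in most cases, and the subunits need most of their proteins in equal amounts. The mRNAs usually begin with a run of C and T letters, the terminal oligopyrimidine tract or TOP, through which mTORC1 raises their translation with little change in mRNA level. Ribosomal protein mRNAs have been copied back into the genome many times in mammals. These processed pseudogenes carry no introns and can match the parent mRNA closely, and the set of copies differs between mouse strains. A short read from a shared stretch can be counted for the parent, counted for the copy or dropped.

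The sequences below show how close such copies are, for 5 copies whose counts differed between the genotypes. Each is the 60-base stretch, inside 1 coding exon of the member, in which the printed copies differ from it at the most bases. Letters are from GENCODE M21 transcripts on GRCm38, 5′ to 3′, and capitals mark the positions where a printed copy differs from its member.
Rplp0 (chr5:115561168-115561227, plus strand): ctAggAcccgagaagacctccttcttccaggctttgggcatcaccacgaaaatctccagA
Gm8730 (chr8:102865352-102865411, minus strand): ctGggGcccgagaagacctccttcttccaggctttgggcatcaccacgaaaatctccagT
Rps13 (chr7:116332390-116332449, minus strand): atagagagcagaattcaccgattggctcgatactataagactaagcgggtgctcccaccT
Rps13-ps1 (chr8:87048071-87048130, plus strand): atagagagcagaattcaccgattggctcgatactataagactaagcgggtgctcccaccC
Rps13-ps2 (chr7:88530488-88530547, minus strand): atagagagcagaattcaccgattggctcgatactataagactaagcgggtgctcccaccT
Rps7 (chr12:28635595-28635654, minus strand): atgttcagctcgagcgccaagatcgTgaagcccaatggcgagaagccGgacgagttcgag
Gm6472 (chrX:152910061-152910120, minus strand): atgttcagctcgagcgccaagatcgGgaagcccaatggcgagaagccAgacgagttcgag
Rplp1 (chr9:61913411-61913470, minus strand): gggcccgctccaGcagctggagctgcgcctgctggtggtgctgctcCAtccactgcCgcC
Gm11942 (chr4:32965086-32965145, plus strand): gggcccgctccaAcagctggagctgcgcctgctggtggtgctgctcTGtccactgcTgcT
Even in these stretches Gm11942 differed from Rplp1 at 5 of 60 bases, Gm8730 from Rplp0 at 3, Gm6472 from Rps7 at 2 and Rps13-ps1 from Rps13 at 1. Rps13-ps2 did not differ at all.

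Annotated pseudogenes were matched to members by name or by at least 95% identity over at least 100 bases. There were 763 matched pseudogenes, 583 of them with counts, and 74 of the 76 members had at least 1. Rpl21 had the most, with 61. The pseudogenes held 36803 counts over all libraries against 851427 for the members. A member is called marked below when its pseudogenes held 5% or more of the reads of both in any library, or when both vehicle libraries of a genotype were over 2-fold from both of the other. Such marks fell on 45 members, all of them through the share of reads and Rpl29, Rpl3 and Rpl34 through genotype as well. Because the share is taken of the member's own reads, a member with few reads passes it more readily.

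The 45 marked members included Rpl26, Rps25, Rpl5, Rpl34, Rps15a, Rpl14, Rpl27a, Rpl38, Rpl24, Rpsa, Rps10, Rps12, Rplp1, Rpl28, Rpl13a, Rpl12, Rplp0, Rps29, Rpl10, Rps2, Rpl9, Rpl27, Rpl15, Rpl36a, Rps27, Rpl7a, Rps27a, Rpl17, Rpl36, Rps23, Rps16, Rpl31, Rpl3, Rps6, Rpl21, Rpl11, Rpl19, Rpl29, Rpl23a, Rps7 and Rps13, in rising order of their highest pseudogene share. That share ran from 5.04% in Rpl26 to 88.4% in Rps13. Just below the limit stood Rpl30, at 4.97%, and Rpl18, at 4.69%. In Rps13 and Rps7 the copies outweighed the gene in every library, with lowest shares of 71.2% and 58.2%.

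Library totals ran from 16874233 to 22560098 counts, so that 3 counts, the limit a count of 0 allows from counting error alone, equalled 0.135 to 0.191 CPM (counts scaled to the TMM-normalised library size). Ddit4 was at 128 and 117 CPM in wild-type vehicle skin, 18.8 and 18.6 in knockout vehicle skin, 64.2 and 4.44 in wild-type and knockout TPA skin, and 90.2 and 7.24 in FA+TPA skin. It was lower in every knockout than in any wild-type library. The noncoding transcript Gm26917 took 8.34% to 13.8% of counts in vehicle and 16.8% to 24.2% in treated libraries. The 6 keratinocyte markers, of which Krt10 is the largest, summed to 17360 to 20260 CPM in vehicle, 16340 to 20290 in TPA and 26800 to 30180 in FA+TPA libraries, as the label of epidermis implies. The sum hides a split, since 2 were called higher and 2 lower in TPA against vehicle (log2 fold changes from -1.845 to 1.579). In FA+TPA against TPA 3 were called higher and 1 lower. The 6 neutrophil markers, of which S100a9 is the largest, summed to 4.23 to 14.9 CPM in vehicle, 395 to 930 in TPA and 108 to 198 in FA+TPA libraries. Of the 5 that could be tested, 4 were called higher in TPA against vehicle, and 1 was not called (log2 fold change -0.70). The sum of the 6 Langerhans cell markers went from 888 to 1022 in vehicle to 663 to 698 in TPA and 472 to 613 in FA+TPA, with 5 markers called lower and 1 higher in TPA against vehicle. The sum of the 6 fibroblast markers, of which Col1a1 is the largest, went from 620 to 1166 to 386 to 512 and 263 to 349, but 3 markers were called lower and 2 higher. None of these marker genes was at 0 in every library, and the part of other cell types in the results below was not tested. In bulk skin, fewer cells of a type and less RNA per cell cannot be told apart.

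The members took a small part of each library: 0.562% to 0.686% of counts in vehicle, 0.476% and 0.492% in TPA and 0.513% and 0.527% in FA+TPA skin. With Gm26917 out of the total these shares were 0.652% to 0.749%, 0.607% to 0.628% and 0.617% to 0.643%. Both ways, the 4 vehicle libraries lay above the 4 treated ones. The 6 members with the most counts, Rpl4, Rps3, Rpl8, Rplp0 and Rplp1 among them, held 49.0% of all member counts, and the 45 marked members held 26.1% to 27.8% in every library.

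Levels per length differed 882.5-fold between the highest and the lowest member. On the scale of mean CPM per kb of exon, Rplp1, an acidic protein of the stalk that contacts elongation factors, was highest at 695. Rpl8 and Rpl4, core proteins of the large subunit, followed at 342 and 315. Lowest were Rps16 at 1.53, Rpl24 at 1.03 and Rpl23a at 0.788. The marked members had a median of 5.43 CPM per kb and the others of 33.9.

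The level went with how much of a gene's sequence is its own. For each member, the share of 75-base stretches of its protein-coding transcripts, untranslated ends included, that occur in no other annotated gene was computed. It ran from 10.8% in Rpl35 to 100% in Rps3. In 24 members it was under 50%, and in 11 it was 90% or more. The median was 57.4% for marked members and 81.3% for the others. Across the 76 members, the level per kb and this share had a Spearman correlation of 0.53 (Pearson 0.51), which is a description over genes of the same libraries. With 50-base and 100-base stretches Spearman's value was 0.45 and 0.59. Rpl23a and Rpl24 had 18.3% and 19.1% of stretches of their own, while Rpl8 and Rpl4 had 96.1% and 91.5%. Rplp1 departed from this order with 54.1%. Rpl23a, Rpl24 and Rpl35 also shared 40% or more of their exon length with other annotated genes, whose reads cannot be told apart here since the strand setting is not given in the sources used here.

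**Figure D1:**
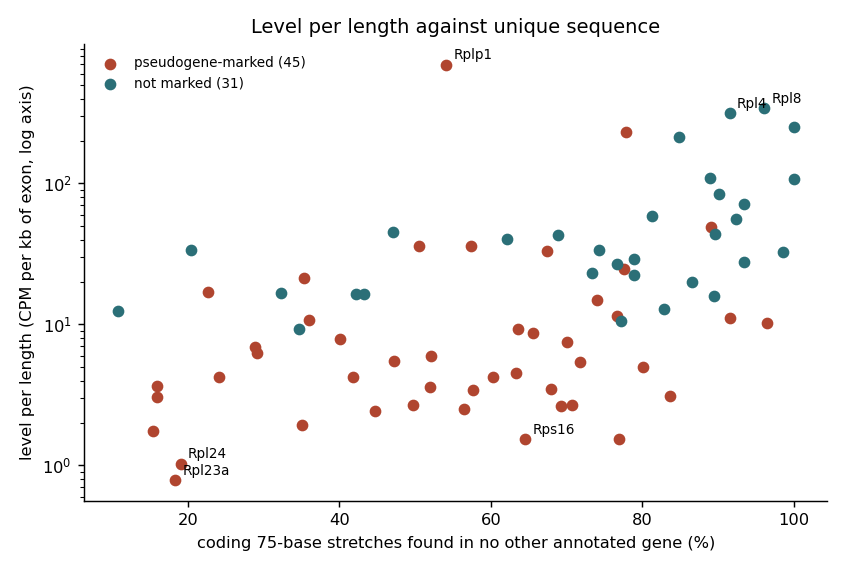
Level per length of the 76 members against their share of unique stretches, each point a gene. The vertical is mean CPM per kb of exon over 8 libraries (log axis). The horizontal is the share (%) of 75-base stretches of protein-coding transcripts, untranslated ends included, found in no other annotated gene. Marked members (45) have a median of 5.43 CPM per kb and the others (31) of 33.9, and Rplp1 stands above the rest at 695.

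TPA against vehicle asks how the irritant changed these mRNAs in both genotypes. The members did not move as a block. By edgeR's quasi-likelihood test with Benjamini-Hochberg adjustment over 19251 genes at 0.05, 27 members were higher and 14 lower with TPA, and 35 did not pass. Over all genes tested, 23.2% were called higher and 22.7% lower, against 35.5% and 18.4% of the members. The median log2 fold change was 0.12 in the members and -0.03 in all genes. The small subunit had 11 higher and 7 lower of 30, the large subunit 16 and 6 of 43, and the stalk 0 and 1 of 3.

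The largest rises were in members of low level. Rpl27, a large subunit protein, was at 3.27 and 4.86 CPM in wild-type and 4.36 and 4.85 in knockout vehicle skin, and at 9.91 and 10.2 in wild-type and knockout TPA skin. Both TPA libraries lay above all 4 vehicle libraries, a log2 fold change of 1.21 (SE 0.17, edgeR adjusted p = 0.000208). Rps6, the small subunit protein that S6 kinase phosphorylates when mTORC1 is active, was at 3.39 and 2.74 CPM in wild-type vehicle, 3.75 and 3.40 in knockout vehicle, and 6.59 and 7.13 in the TPA libraries. The groups did not overlap, and the log2 fold change was 1.05 (SE 0.16, edgeR adjusted p = 0.000407). Rpl13a, known outside the ribosome for silencing of inflammatory mRNAs in the GAIT complex, was at 13.4 and 15.7 CPM in wild-type vehicle, 12.8 and 12.7 in knockout vehicle, and 29.7 and 26.5 with TPA. It rose by 1.04 on the log2 scale (SE 0.10, edgeR adjusted p = 1.89e-05). Rpl19, which forms a bridge to the small subunit, was at 1.04 to 1.64 CPM in the vehicle libraries and at 2.89 and 2.56 with TPA, a log2 fold change of 0.96 (SE 0.24, edgeR adjusted p = 0.00679).

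Other rises included Rpl12, a protein at the base of the stalk (log2 fold change 0.94), Rpl10, which joins the large subunit last (0.93), and Rps12 (0.81). Rps2, at the mRNA entry of the small subunit, rose by 0.74, and Rpl3, near the peptidyl transferase centre, by 0.67. Rps27a, made as a fusion with ubiquitin, rose by 0.67, and Rps27 by 0.80. Rpl10a, of the mobile stalk near the exit site, rose by 0.58. Rpl11 and Rpl5, which bind Mdm2 and so raise p53 when ribosome assembly is disturbed, rose by 0.46 and 0.41. Rpsa, also known as the laminin receptor precursor, rose by 0.43, and Rpl41, the shortest member protein, by 0.36. The largest adjusted p among all 41 called members was 0.0417 by edgeR.

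The falls were in members of high level. Rps14, whose loss causes anaemia in human myelodysplastic syndrome, was at 293 and 325 CPM in wild-type vehicle, 339 and 294 in knockout vehicle, and 207 and 176 with TPA. All 4 vehicle libraries lay above both TPA libraries, and it fell by 0.71 on the log2 scale (SE 0.11, edgeR adjusted p = 0.000349). Rps20, in the head of the small subunit, was at 112 to 163 CPM in vehicle and 88.4 and 84.8 with TPA, and fell by 0.63 (SE 0.13, edgeR adjusted p = 0.00278). Rplp0, the base of the stalk, was at 339 and 399.8 CPM in wild-type vehicle, 545 and 484 in knockout vehicle, and 271 and 324 with TPA. It fell by 0.56 (SE 0.11, edgeR adjusted p = 0.00155) and in both genotypes the TPA library lay below its vehicle pair. Rps15, needed for export of the small subunit from the nucleus, was at 118 to 181 CPM in vehicle and 113 and 98.1 with TPA, a fall of 0.53 (SE 0.15, edgeR adjusted p = 0.0128).

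Rps4x, the X-linked small subunit gene, fell by 0.46, Rpl22 by 0.38 and Rps19, the gene most often mutated in Diamond-Blackfan anaemia, by 0.32. The most abundant members by counts were not among the calls. Rpl4, which lines the exit tunnel, was at 584 to 693 CPM in vehicle and 650.1 and 564 with TPA, and Rps3, at the mRNA entry, at 451 to 513 and 500.3 and 439. For both the TPA values lay within the vehicle range or just below it. The log2 fold changes were -0.08 (SE 0.10, edgeR adjusted p = 0.537) and -0.05 (SE 0.10, edgeR adjusted p = 0.719). Rplp1, Rplp2, Rps15a and Rpl32 did not pass either, with log2 fold changes of -0.28, 0.12, -0.15 and -0.24.

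Direction followed level and the pseudogene mark. Of 21 members with a mean under 10 CPM, 12 were called higher and 0 lower, with 20 of 21 changes positive. Of 29 between 10 and 50 CPM, 12 were higher and 2 lower, and of 26 with 50 CPM or more, 3 were higher and 12 lower. The 45 marked members had 24 higher, 2 lower and a median of 0.43. The 31 others had 3 higher (Rpl6, Rpl41 and Rpl10a), 12 lower and a median of -0.19. Across the 76 members, log2 fold change and log2 mean CPM had a Spearman correlation of -0.74 (Pearson -0.68). It was -0.52 within the marked and -0.41 within the other members, against 0.12 over all 19251 genes tested. With the share of unique 75-base stretches it was -0.51. These are descriptions over genes that share libraries and depth, and the mean level includes the TPA libraries. What ties level and direction together was not tested.

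**Figure D2:**
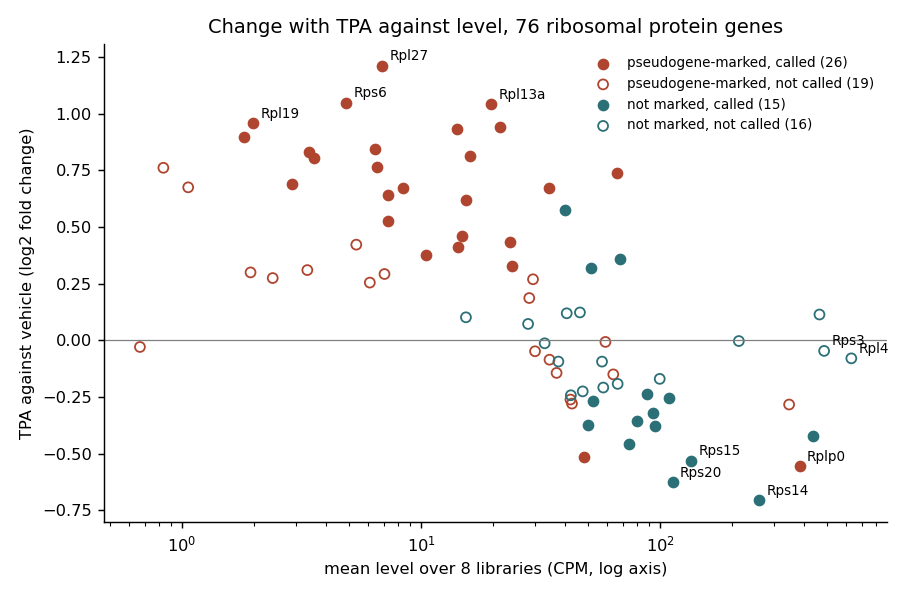
TPA against vehicle (vertical, log2 fold change) against the mean level over 8 libraries (horizontal, CPM, log axis) for the 76 members, filled where called by edgeR at an adjusted p of 0.05. Rises sit at the left, among marked members, and falls at the right, where Rps14, Rps20 and Rps15 are unmarked and Rplp0 is marked.

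Several counts rest on single libraries. Without the knockout TPA library, 17 members were higher and 2 lower; without the wild-type TPA library, 16 and 9. Without wild-type vehicle 1, in which 53 of 76 members were lower than in wild-type vehicle 2 (median log2 difference -0.17), 27 were higher and 23 lower, and without knockout vehicle 1, 24 and 9. Rplp0 and Rps15 missed the threshold without the knockout TPA library (edgeR adjusted p = 0.0508 and 0.177). Scaling by library size alone moved the median of all genes from -0.03 to -0.25 and gave 18 higher and 27 lower members; the members' median lay 0.15 above that of all genes either way. Rpl10, Rpl10a, Rpl12, Rpl13a, Rpl27, Rpl9, Rps12, Rps2, Rps25 and Rps6 stayed higher, and Rps14 and Rps20 lower, in every setting run.

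When the counts of its matched pseudogenes were added to each member, an alternative chosen after seeing the data, 36 of the 41 calls held, with 23 higher and 15 lower in all. Rpl19 lost its rise, with a log2 fold change of -0.00 (edgeR adjusted p = 0.993). Its pseudogenes held 21.7% to 67.4% of the reads of both. Of the 86 pseudogenes with enough counts to test, 1 was higher and 13 lower with TPA, with a median of -0.26. Of all genes, 23.2% were called higher and 22.7% lower, with a median of -0.03.

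The letters at the annotated starts are shown for the 4 largest rises and, among the 4 largest falls, for Rplp0 and Rps15, because these members moved in opposite directions. Each line gives 15 bases before and 15 from the start, 5′ to 3′, from RefSeq's table on GRCm38.p6. Capitals mark a run of at least 5 C or T letters that begins with C within 5 bases of the start, searched on the gene's own strand only.
Rpl27 (chr11:101442230-101442259, plus strand): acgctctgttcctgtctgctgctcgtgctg
Rps6 (chr4:86857353-86857382, minus strand): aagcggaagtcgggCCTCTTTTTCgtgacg
Rpl13a (chr7:45128731-45128760, minus strand): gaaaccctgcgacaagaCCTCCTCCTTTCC
Rpl19 (chr11:98026695-98026724, plus strand): tgaccaaacgCCCTCactgcgcatgtgcgc
Rplp0 (chr5:115559452-115559481, plus strand): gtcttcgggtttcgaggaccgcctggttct
Rps15 (chr10:80292416-80292445, plus strand): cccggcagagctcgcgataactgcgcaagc
The table held 56 of the 76 members, and 27 of them (48.2%) had such a run at a listed start, against 21.2% of all 27025 genes in it. Runs were found in 9 of 23 members higher with TPA, 2 of 10 lower and 16 of 23 not called. A run here is a description of letters, and where none was found, only this window at the annotated start lacks it.

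FA+TPA against TPA asks whether the glucocorticoid altered the response. No member passed the edgeR test. At an unadjusted p under 0.05, 0 of 76 members were higher and 3 lower, against 2452 and 2071 of all 19251 genes. DESeq2 and limma-voom also called 0 members. Without wild-type vehicle 1, edgeR called 1. Of all genes tested, 10% were called in either direction. The smallest edgeR adjusted p of a member was 0.125, for Rps27a. Rps27a was at 12.1 and 10.5 CPM with TPA and 8.83 and 7.48 with FA+TPA, a log2 fold change of -0.47 (SE 0.17). Rps29, a zinc-binding small subunit protein, was at 2.89 and 2.47 and at 1.97 and 1.51, with -0.63 (SE 0.26, edgeR adjusted p = 0.175). Rpl12 was at 30.5 and 29.4 and at 26.7 and 22.9, with -0.27 (SE 0.12, edgeR adjusted p = 0.19). In all 3, both FA+TPA libraries lay below both TPA libraries, and for Rpl12 they lay above all vehicle libraries. These 3 were picked for the smallest p in this comparison, so the order of their libraries is no separate support. Of the 31 unmarked members 29 had a positive value, with a median of 0.10, and of the 45 marked members 15 did, with a median of -0.09. Of all 19251 genes 9757 did, with a median of 0.006. The same TPA libraries stand on the other side in TPA against vehicle, so opposite signs there and here can arise by arithmetic. The values of Rps27a, Rps29 and Rpl12 exceeded their errors and still did not pass. With 2 libraries a group, changes larger than the errors could therefore also go undetected.

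FA+TPA against vehicle uses the same vehicle libraries as the TPA comparison. It gave 20 higher and 5 lower members, where 17.4% of all genes were called higher and 14.2% lower, and a median of 0.19 (all genes -0.01). Rpl27 was at 9.09 and 8.62 CPM with FA+TPA (log2 fold change 1.03, SE 0.18, edgeR adjusted p = 0.00132), Rps6 at 5.53 and 6.45 (0.85), Rpl28 at 8.45 and 7.90 (0.82) and Rpl13a at 24.3 and 22.5 (0.78). The lower members were Rps14 at 211 and 233 CPM (-0.49, SE 0.11, edgeR adjusted p = 0.00518), Rps20 at 98.0 and 99.0 (-0.44), Rpl22 at 81.2 and 85.4 (-0.36), Rplp0 at 286 and 423 (-0.32) and Rps4x at 71.8 and 63.9 (-0.30). For Rps14, Rps20, Rpl22 and Rps4x both FA+TPA libraries lay below all vehicle libraries, while Rplp0's overlapped them. Without the wild-type FA+TPA library 8 members were higher and 0 lower, and without the knockout one 7 and 1. Without knockout vehicle 1 there were 13 and 2, and without wild-type vehicle 1 the lower count was 9. By DESeq2 there were 13 and 5, and by library size alone 7 and 16.

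**Figure D3:**
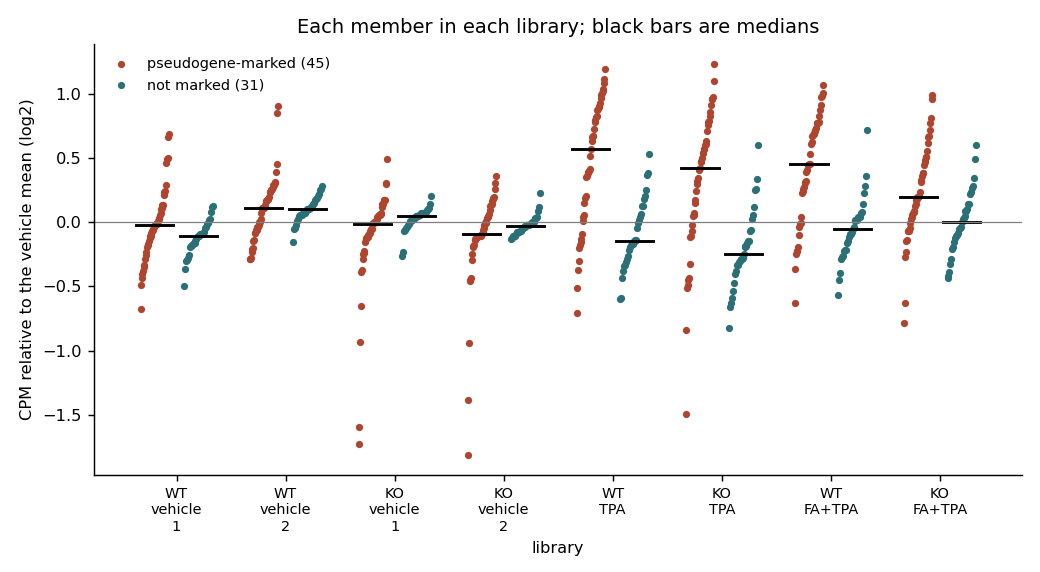
Each member's CPM relative to its mean over the 4 vehicle libraries (vertical, log2) in each of the 8 libraries (horizontal), sorted within a library, with black bars at the median. Marked members have medians of 0.57 and 0.42 in the wild-type and knockout TPA libraries and 0.46 and 0.20 with FA+TPA, and unmarked members have -0.15, -0.24, -0.05 and -0.00.

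Knockout against wild type asks what loss of REDD1 changed. Over all treatments, 4 members were lower in the knockout and 2 higher, where 1.6% of all genes were called lower and 1.98% higher. The other 70 did not pass, and the median of the members was -0.03. The 4 lower members were Rpl29 (chr9), Rpl34 (chr3), Rpl3 (chr15) and Rps2 (chr17). None of them lies on chromosome 10, where Ddit4 is. All 4 are marked, as are 45 of the 76 members, but the mark is not independent of genotype. Rpl29, Rpl3 and Rpl34 also met its 2-fold limit between genotypes, and a share rises when a member's own reads fall. Rpl34 passed the 5% share only in knockout vehicle skin, at 6.075% and 7.34%. Some markers of other cells moved with genotype. The 3 sebaceous markers summed to 1362 and 2102 CPM in wild-type and 3735 and 4756 in knockout vehicle skin, and all 3 were called higher there. Of 5 skeletal muscle markers, 4 were called higher in knockout vehicle skin, with sums of 19.1 and 4.96 in wild type and 161 and 49.7 in the knockout, and 2 of 6 T cell markers were lower over all treatments. Their part in the genotype results was not tested.

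Rpl29, a large subunit protein also described as a heparin-binding protein, was at 8.75 and 9.76 CPM in wild-type vehicle, 11.02 in wild-type TPA and 10.7 in wild-type FA+TPA skin. In the knockout it was at 1.64 and 1.54, 1.93 and 3.50. The genotypes did not overlap, and the log2 difference was -2.28 (SE 0.18, edgeR adjusted p = 9.74e-05). Rpl34, another large subunit protein, was at 40.3 and 53.2, 45.4 and 44.0 CPM in the same wild-type libraries and at 9.41 and 10.9, 15.9 and 16.5 in the knockout. The lowest wild-type library was above the highest knockout library by over 2-fold, and the log2 difference was -1.83 (SE 0.16, edgeR adjusted p = 0.000163). Rpl3 was at 44.8 and 38.6, 52.7 and 55.5 CPM in wild type and at 14.8 and 14.7, 29.7 and 23.3 in the knockout, with -1.26 (SE 0.12, edgeR adjusted p = 0.00029). Rps2 was at 74.1 and 64.3, 111 and 89.96 CPM in wild type and at 33.5 and 38.4, 62.1 and 54.8 in the knockout. Its ranges came closest, with 64.3 the lowest wild-type and 62.1 the highest knockout value, and the log2 difference was -0.86 (SE 0.08, edgeR adjusted p = 0.000343).

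In vehicle skin alone the same 4 were lower and 0 members were higher by edgeR, and 0 were higher by DESeq2 and limma-voom. At an unadjusted p under 0.05 by edgeR, 3 of 76 members were higher, against 1344 of all 19251 genes. Without wild-type vehicle 2, 5 were higher. Of all genes, 0.727% were lower and 1.44% higher. The log2 differences were -2.54 for Rpl29 (SE 0.23, edgeR adjusted p = 0.000707), -2.20 for Rpl34, -1.50 for Rpl3 and -0.94 for Rps2. These 4 stayed lower in every setting run, left-out libraries and added pseudogene counts included.

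The higher members were Rplp0 and Rpl30. Rplp0 was at 271 to 399.8 CPM in the 4 wild-type and 324 to 545 in the 4 knockout libraries, which overlap, but within each treatment the knockout was higher (log2 difference 0.44, SE 0.08, edgeR adjusted p = 0.019). Rpl30, a large subunit protein, was at 19.4 to 26.5 CPM in wild type and 31.6 to 32.9 in the knockout, without overlap (0.44, SE 0.10, edgeR adjusted p = 0.0386). Rpl30 is the only one of the 6 without a mark, and its pseudogene share reached 4.97%. Both calls were lost without knockout vehicle 1 or either FA+TPA library, and with 1 mean per group, and 1 of the 2 was lost in 5 other settings.

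**Figure D4:**
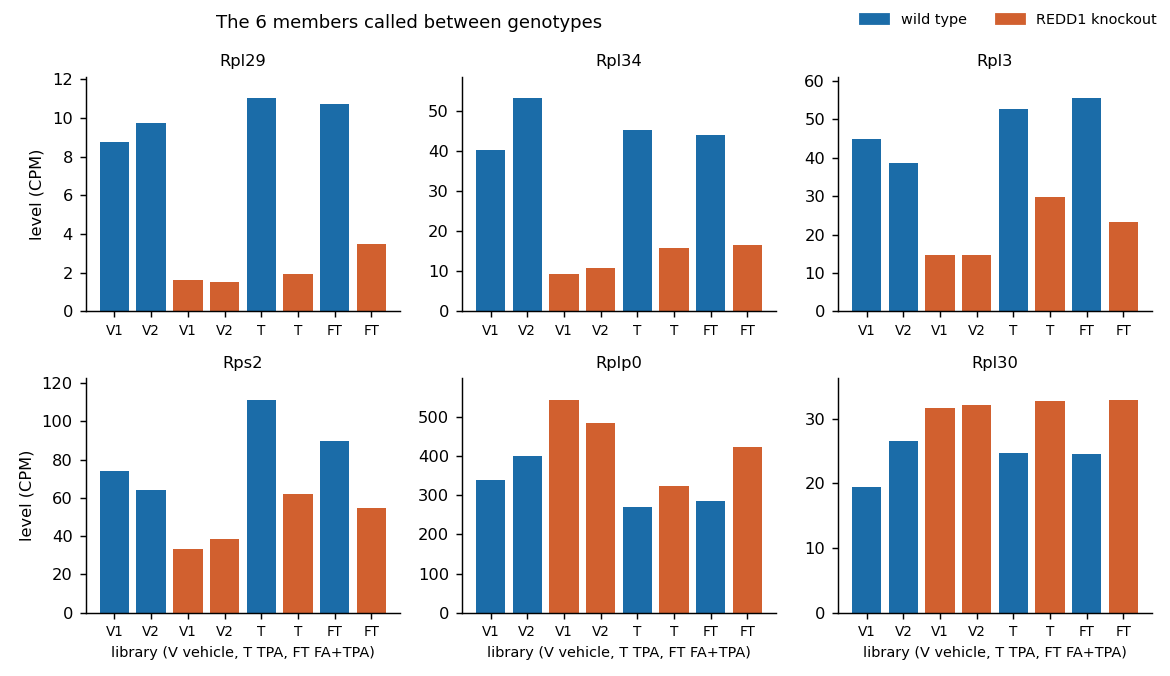
CPM (vertical, linear from 0, a scale per panel) of the 6 members called between genotypes in each of the 8 libraries, wild type in blue and REDD1 knockout in orange. Rpl29, Rpl34, Rpl3 and Rps2 are lower in all 4 knockout libraries than in any wild-type library, Rpl30 is higher, and Rplp0 overlaps.

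Copies of members differed between the genotypes as well. Of 86 pseudogenes tested, 5 were higher and 7 lower in the knockout over all treatments, where 1.98% of all genes were higher and 1.6% lower. Gm8730, a copy of Rplp0 with 98.7% identity over 954 bases, had 386, 548, 284 and 263 deposited counts in wild-type vehicle 1, vehicle 2, TPA and FA+TPA, and 4, 4, 2 and 2 in the knockout libraries. Rps13-ps2 had 57, 100, 64 and 55 counts in wild type and 0, 0, 1 and 0 in the knockout, and Rps15a-ps8 had 52, 95, 64 and 44 and 0, 0, 0 and 1. These 3 were near absent from every knockout library and present in every wild-type one. Gm10036, a copy of Rpl11, summed to 811 counts in wild type and 65 in the knockout.

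Others were more abundant in the knockout. Gm11942, matched to Rplp1, had 420, 440, 355 and 272 counts in wild type and 1069, 973, 732 and 610 in the knockout (log2 difference 0.93, SE 0.10, edgeR adjusted p = 0.000869). Rps13-ps1 had 278, 423, 308 and 299 in wild type and 784, 846, 799 and 595 in the knockout (0.96). Gm6472, matched to Rps7, had 269, 330, 182 and 190 and 761, 697, 460 and 405 (1.01). In none of these 3 did the genotypes overlap. The parent genes Rplp1, Rps13 and Rps7 had log2 differences of -0.20, -0.19 and -0.12, none of which passed the test.

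**Figure D5:**
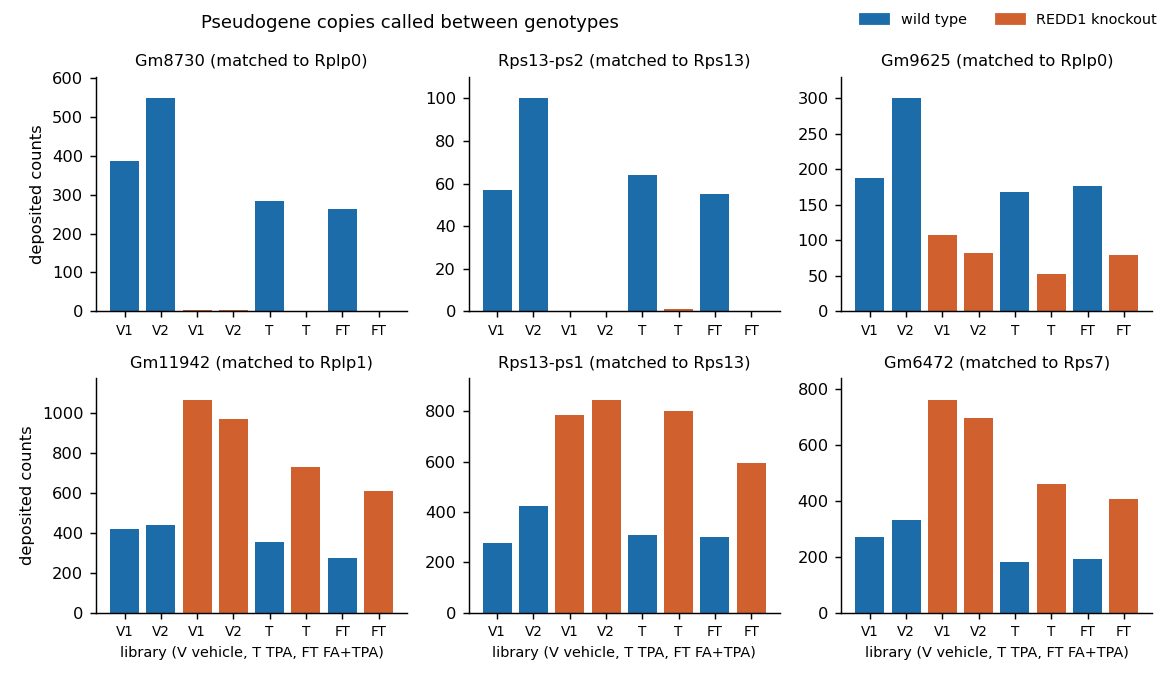
Deposited counts (vertical, linear from 0, a scale per panel) of 6 pseudogenes called between genotypes in each of the 8 libraries, wild type in blue and REDD1 knockout in orange. Gm8730 has 263 to 548 counts in wild type and 2 to 4 in the knockout, and Gm11942, Rps13-ps1 and Gm6472 are higher in every knockout library.

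The counts of each member and its copies were also summed. Adding copies that differ little between genotypes makes the difference of a sum smaller by arithmetic alone. Whether reads moved between members and copies was not tested. With its 5 copies added, Rplp0 had a log2 difference of 0.28 and did not pass (edgeR adjusted p = 0.12). Its copies went from 40.1 to 57.6 CPM in wild type to 10.04 to 24.6 in the knockout. Rpl29 with its 48 copies had -1.09, and those copies stood at 4.80 to 6.80 and 4.82 to 5.57 CPM, which overlap. Rpl34 with its copies had -1.77, Rpl3 -0.93 and Rps2 -0.76, and all 4 sums passed the test. The copies of Rps2 overlapped too, at 8.83 to 10.8 CPM in wild type and 6.93 to 11.3 in the knockout. Those of Rpl34 were at 0.127 to 0.62 and 0.314 to 0.861. The copies of Rpl3 overlapped over all libraries, at 2.155 to 4.97 and 3.45 to 9.79. In vehicle skin they were higher in the knockout, at 9.79 and 7.03 against 4.97 and 4.29 in wild type. The sums for Rps13 (0.50, edgeR adjusted p = 0.0105) and Rps7 (0.63, edgeR adjusted p = 0.00459) were higher in the knockout, and that for Rpl11 was lower (-0.56, edgeR adjusted p = 0.0105), although none of these genes was called alone. The background of all mice is a cross of C57Bl and 129, and the labels do not say which strain any copy came from. Loss of REDD1 and strain differences in a gene or its copies between the mice cannot be told apart. The wild-type files also end their lines with a carriage return and the knockout files do not, and whether the genotypes were processed alike is not given in the sources used here.

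No member was called for an interaction of genotype with TPA or with FA. Of all genes, 0.00519% were called for the first and 0% for the second. At an unadjusted p under 0.05 there were 2 of 76 members for TPA, both positive, and 0 for FA. Of all 19251 genes, 471 were positive and 543 negative at that limit for TPA, and 312 and 301 for FA. DESeq2 and limma-voom also called 0 members for both. Without wild-type vehicle 1, 1 member was called for TPA. The 2 were Rpl3 (log2 difference of responses 0.67, SE 0.23, edgeR adjusted p = 0.762) and Rpl34 (0.69, SE 0.29, edgeR adjusted p = 0.915). For FA the smallest unadjusted p was that of Rpl29 (0.89, SE 0.43, edgeR adjusted p = 1.00), and the values ran from -1.36 in Rpl23a to that of Rpl29. With 1 library for each treated group these tests rest on the spread of the vehicle pairs.

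The rest of the translation machinery was read from lists. Ribosome biogenesis factors were higher with TPA in 32 of 38 and lower in 0, with a median of 0.56. Nop56, of the box C/D particles that methylate ribosomal RNA, was at 26.1 to 26.6 CPM in vehicle and 61.1 and 63.2 with TPA (log2 fold change 1.23), and Ddx21, a nucleolar helicase, rose by 0.96. Translation initiation factors were higher in 24 of 29 and lower in 0, with a median of 0.47, among them Eif2b4 (1.07) and Eif3b (0.81). Mitochondrial ribosomal proteins, which serve another ribosome, were higher in 42 and lower in 2 of 77 tested, with a median of 0.37; Mrpl12 rose by 1.14. Elongation factors and other TOP mRNAs had 7 higher and 4 lower of 19, with a median of 0.11, near that of the members. Eef1g and Eef1d rose by 0.98 and 0.69. Among 14 genes between mTORC1 and the ribosome, 4 were higher (28.6%) and 3 lower (21.4%), near the 23.2% and 22.7% of all genes, with Rps6kb2, an S6 kinase, at 0.76 and Pdcd4, an inhibitor of initiation that S6 kinase targets for loss, at -0.92.

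Of the ribosome genes outside the rule, Fau, made as a fusion with a ubiquitin-like protein, rose with TPA by 0.95 on the log2 scale. Its call was near the threshold (SE 0.36, edgeR adjusted p = 0.0492) and rests on 173 counts in all. Fau was at 2.52 CPM in wild-type and 1.08 in knockout TPA skin, and the latter lay below wild-type vehicle 1 at 1.52. Rack1, a scaffold on the small subunit, did not pass (-0.18, edgeR adjusted p = 0.154). Rps3a1 was at 16.2 and 17.6, 13.4 and 16.1 CPM in the wild-type libraries and at 1.92 and 1.95, 2.69 and 3.14 in the knockout, a log2 difference of -2.72. Fau and Rack1 were not called between genotypes. Of the 8 like copies 6 were tested, with Rpl7l1 and Rpl36al higher with TPA (0.52 and 0.73) and Rps27l, a p53 target, lower (-0.61). Among 11 genes listed for p53, Trp53 included, 2 were higher (18.2%) and 4 lower (36.4%) with TPA, against 23.2% and 22.7% of all genes. With FA+TPA against TPA 2 were higher, Sesn1 (0.71) and Zmat3 (0.34), where 5.71% of all genes were called higher.

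The genes whose log2 CPM over the 8 libraries was most like the mean log2 CPM of the members, among 5115 genes whose own mean reached 5, were Sdr9c7 (Pearson 0.99), Strn (0.98) and Slc28a3 (0.98). Sdr9c7, an enzyme of the skin lipid barrier, was at 155 to 229.6 CPM in vehicle, 323 and 239.7 with TPA and 334 and 278 with FA+TPA. The mean over members weights low and high members alike, and these values are a description.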

How the data were processed

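The submitters' processing notes name Trim Galore, STAR, HTSeq and the build mm10. Their versions, the annotation, the strand setting and the handling of multiply mapped reads were not given in the sources used here. The deposited files hold raw read counts per Ensembl gene, 1 library each, not normalised by the authors. Symbols, exon lengths and pseudogenes came from GENCODE M21 (54165 identifiers matched, 67 not). The counts were fitted with edgeR 4.0.16 in R 4.3.3 (TMM, filterByExpr by treatment at 10 counts, 19251 genes, quasi-likelihood F tests, Benjamini-Hochberg threshold 0.05). Treatments and the overall genotype effect were fitted additively (4 residual degrees of freedom), vehicle genotype and interactions with 1 mean per group (2). All 76 members passed the filter. The fits were tested on simulated data. Pseudogenes were matched with BLAST 2.17.0. Vehicle pairs differed beyond sampling noise (chi-square per degree of freedom 31.1 and 13.8).

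The members, gene lists and tests were chosen with earlier results of these data known. Members named were a preset list of 23 genes with known roles, up to 4 rises and 4 falls per comparison (or the 3 smallest p where under 4 passed), the 3 highest and lowest per kb, every marked member, and from each list the 2 smallest p for TPA and for FA. Some genes that this rule takes are not reported here. Pseudogenes named were chosen after their values were seen. Alternatives were RLE and library-size scaling, TMM without the members, removal of Gm26917, other count minimums, limma-voom 3.58.1, DESeq2 1.42.0, other designs, each library left out, and pseudogene counts added to members.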

Additional observations from a re-analysis of the deposited data

How the results depend on the processing

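Over the settings run, the results for single members kept direction and side of the threshold in 1109 cases, weakened in 95, strengthened in 16 and reversed in 2. Both reversals were Rpl19 with pseudogene counts added, at -0.003 for TPA and -0.025 for FA+TPA against vehicle. Library size alone gave 27 lower members and a median of -0.108 for TPA; 7 higher, 16 lower and a median of -0.028 for FA+TPA against vehicle; and interaction medians of 0.087 (TPA) and -0.095 (FA). Without marked members, 3 were higher with a median of -0.192 for TPA, and 3 higher with -0.008 for FA+TPA against vehicle. Genotype then gave 1 higher and 0 lower over all treatments and 0 lower in vehicle. These genotype counts follow in part from the mark itself, which takes in members over 2-fold apart between genotypes in vehicle skin. For FA+TPA against vehicle, a minimum count of 50 gave a median of 0.101, DESeq2 13 higher, 1 mean per group 3 lower, and added pseudogene counts a median of 0.085. With 1 mean per group 0 members were higher in the knockout, and with pseudogene counts added 1 was higher in vehicle. With Gm26917 removed the members' shares were 0.706%, 0.617% and 0.630% in vehicle, TPA and FA+TPA.

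Leaving out each library in turn gave 16 to 28 higher and 2 to 23 lower members for TPA (median 0.075 to 0.162), 0 to 1 called for FA+TPA against TPA (-0.055 to 0.090), 7 to 18 higher and 0 to 9 lower for FA+TPA against vehicle (0.106 to 0.192), 0 to 3 higher and 4 to 4 lower for the knockout over all treatments (-0.084 to -0.008), 0 to 5 higher and 4 to 5 lower in vehicle (-0.134 to 0.072), and for the interactions 0 to 1 (-0.225 to 0.001) and 0 to 0 (0.103 to 0.118), where an interaction without a treated library it needs could not be fitted. The cause of these shifts was not tested. Vehicle replicate numbers are shared across genotypes, but the labels do not tie them; deviations of same-numbered libraries correlated at -0.0588, and vehicle libraries alone gave 0 higher and 4 lower members both with and without the replicate block (medians -0.003 and -0.007).

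With 1 treated library a genotype, changes smaller than the printed errors were not detectable, and members under 1 CPM (Rpl23a, Rpl38) rest on few counts.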
